A study of Mus musculus with 14 samples.

Results

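The cells described here are 297 single cells labelled by a genetic tracing of blood stem cells, 107 from 1 mouse (m4533) at day 10 and 190 from 1 mouse (m4539) at day 3. They are all barcodes of the day 10 and day 3 plates with at least 500 detected genes and at least 10000 counts, and they make up 297 of the 1010 cells that the same limits keep in the whole series. The day 10 cells came from plates 13, 14 and 15, with 33, 43 and 31 cells, and the day 3 cells from plates 1 and 2, with 94 and 96 cells. Both groups were sorted alike, as cells that lacked surface markers of mature lineages and carried the Tom reporter (Lin- Tom+), and neither had a treatment or mutation that the labels name beyond the tracing itself. The labels do not give strain, age, sex, the driver of the reporter or the event from which days were counted. In the published work, as known from outside the labels, a tamoxifen-inducible Cre expressed from Pdzk1ip1 switched the reporter on, and days were counted from induction. Libraries were a Smart-seq2 variant read at the 3′ end of transcripts.

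Each day is 1 mouse, so day, mouse, sort and plate cannot be told apart, and no test between days was possible. Plates of a day share the mouse but hold different cells, so the spread between them is within 1 mouse and carries both technical variation and the mix of cells sorted. Levels are counts summed over cells and scaled to 1000000 (CPM), intervals are exact 95% Poisson intervals for levels and exact 95% binomial intervals for shares, and both cover counting error only. A gene is called higher or lower at day 10 when its level differs at least 2-fold and all 3 day 10 plates lie beyond both day 3 plates.

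Blood stem cells (hematopoietic stem cells, HSC) sit in the bone marrow, divide rarely, and give rise to all blood lineages through progenitors that divide more often. Megakaryocytes, which shed platelets, can arise by short routes from stem cells and share surface and granule genes with some of them. A label switched on in stem cells passes to their progeny, so cells of a later day can include descendants that have left the stem cell state. Immediate early genes such as Fos and Junb encode transcription factors and regulators that cells switch on within minutes of a stimulus.

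The promoters of a few immediate early genes and of the platelet gene Pf4 are shown because both gene groups differed between the days. Windows run from 250 bases before to 50 bases after the transcription start in RefSeq (build GRCm38.p6), on the strand of the gene, and capitals mark a match on either strand. The motif is TGACG, the core of the cAMP response element, in the first 4 windows. In Pf4 it is AGATAA, which factors such as Gata1 can bind. Fos lies at chr12:85473640-85473939 on the plus strand, Junb at chr8:84978699-84978998 on the minus strand, Dusp1 at chr17:26508423-26508722 on the minus strand, Zfp36 at chr7:28379179-28379478 on the minus strand, and Pf4 at chr5:90772185-90772484 on the plus strand.
Fos: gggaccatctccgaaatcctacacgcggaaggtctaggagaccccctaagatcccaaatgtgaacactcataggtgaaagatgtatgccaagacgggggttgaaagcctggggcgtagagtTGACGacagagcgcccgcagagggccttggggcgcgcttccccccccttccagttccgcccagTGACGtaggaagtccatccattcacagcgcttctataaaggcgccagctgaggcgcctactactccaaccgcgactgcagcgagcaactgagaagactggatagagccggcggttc
Junb: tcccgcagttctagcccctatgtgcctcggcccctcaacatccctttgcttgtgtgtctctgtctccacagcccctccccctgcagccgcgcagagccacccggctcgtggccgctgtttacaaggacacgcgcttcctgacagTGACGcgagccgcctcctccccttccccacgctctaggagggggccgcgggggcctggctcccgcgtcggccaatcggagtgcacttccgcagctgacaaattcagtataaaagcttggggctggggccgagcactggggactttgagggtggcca
Dusp1: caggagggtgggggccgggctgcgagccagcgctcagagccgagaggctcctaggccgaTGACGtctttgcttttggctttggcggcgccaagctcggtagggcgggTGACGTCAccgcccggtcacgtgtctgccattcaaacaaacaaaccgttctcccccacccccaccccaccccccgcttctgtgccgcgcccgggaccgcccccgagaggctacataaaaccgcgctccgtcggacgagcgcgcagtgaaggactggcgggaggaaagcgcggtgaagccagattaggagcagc
Zfp36: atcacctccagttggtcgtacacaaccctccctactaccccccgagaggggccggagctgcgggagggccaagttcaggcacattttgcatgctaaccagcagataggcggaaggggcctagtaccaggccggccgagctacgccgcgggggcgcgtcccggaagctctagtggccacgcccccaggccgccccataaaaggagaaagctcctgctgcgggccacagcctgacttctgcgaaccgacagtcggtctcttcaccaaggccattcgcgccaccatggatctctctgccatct
Pf4: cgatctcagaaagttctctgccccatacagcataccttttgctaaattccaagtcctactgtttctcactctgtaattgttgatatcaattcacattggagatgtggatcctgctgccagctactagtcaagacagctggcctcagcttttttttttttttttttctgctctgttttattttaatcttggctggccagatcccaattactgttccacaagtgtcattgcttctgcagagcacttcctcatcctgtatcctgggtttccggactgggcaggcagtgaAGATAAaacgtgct
Fos holds the core motif at positions -129 and -66 from the start, Junb at -106, and Dusp1 at -191, at -143 and, on the other strand and overlapping the second, at -140. The Zfp36 window holds none. The core motif occurs on either strand in 20.8% of all 32851 promoter windows. Of the 17 immediate early and stress genes of the list used here that have a window, 9 hold it in any window. AGATAA or its reverse complement occurs in 11.2% of all windows and in any window of 5 of 17 genes of the megakaryocyte list. Windows and genes are unlike units, as a gene may have several windows, so these shares are not directly comparable. The match in Pf4 starts at position 37 after the start, and the windows of Gp9 and Treml1, also on that list, hold 0 matches. A match describes letters and was not tested as a binding site.

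The plates held 40041487 counts in day 10 cells and 28934071 in day 3 cells. A day 10 cell was deeper, with a median of 286917 counts and 4809 genes, against 127190 counts and 3635.5 genes in day 3 cells. Cells of near equal counts could differ in genes. Single cells of 188516, 201624 and 197802 counts on plates 13, 14 and 15 had 2950, 4281 and 3749 genes. On plates 1 and 2, single cells of 200878 and 197113 counts had 4433 and 5121 genes. A plate 13 barcode of 87616 counts went the other way, with 10994 genes. Thinning sets counts equal, and the part of detected genes in gates and thinned shares was not tested. Of the counts, 97.2% lay in kept cells at day 10 and 99.7% at day 3. The 96 well barcodes were reused, and 67 of them were found in both days. Short transcripts were under-represented on the day 10 plates: genes whose longest transcript is at most 800 nt took 2.06%, 4.07% and 1.86% of the counts of plates 13, 14 and 15, against 4.68% and 6.14% on plates 1 and 2. The part of transcript length in the results on short genes was not tested. Counts of markers also appeared at low level in nearly all cells of some plates. On plate 14, 28 of 37 cells outside the platelet gate held more than 10 counts of Pf4, and on plate 15, 25 of 28 cells outside the erythroid gate held more than 10 counts of Car1, against 0 of 33 such cells on plate 13 and 4 of 42 on plate 14. On plates 1 and 2, 0 of 93 and 0 of 95 such cells did, although each of these plates held an erythroid gate cell with 2950 and 2647 counts of Car1. The source of the low counts was not tested. For that reason shares of cells are given at more than 10 counts, at more than 10 counts after thinning each cell to 50000 counts (105 day 10 and 185 day 3 cells), and, as a measure added after the values were seen, at 100 CPM or more.

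At least 20 CPM in one of the days was reached by 8142 genes. Of these, 376 were called higher at day 10 (4.62%) and 573 lower (7.04%), and the median log2 ratio over all of them was 0.12. Platelet and megakaryocyte genes were among the genes higher at day 10, and Fos, Jam3, Ifitm1, Pdzk1ip1 and ribosomal protein genes were among the lower ones. A single cell held over 25% of the counts of the higher day in 75 of the higher and 21 of the lower genes.

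**Figure D1:**
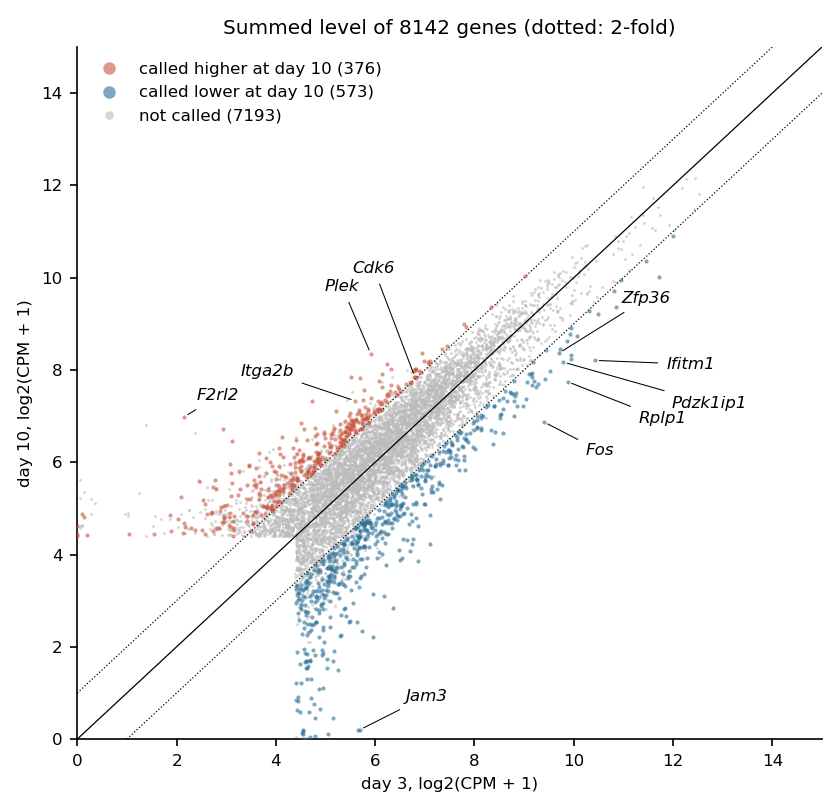
Summed level of each of 8142 genes at day 10 (vertical, log2 of CPM + 1) against day 3 (horizontal, same scale), with the equal-level line drawn solid and 2-fold dotted. The 376 genes called higher are red, the 573 called lower are blue, and Fos, Ifitm1, Pdzk1ip1 and Rplp1 stand out among the abundant lower genes.

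Fewer day 10 cells passed the stem cell gate, and more passed the platelet gate. A cell counted for a gate when, thinned to 20000 counts, at least 3 of the gate's genes (4 for the stem cell gate) had at least 3 counts. The stem cell gate was built on 10 genes: Hlf, Mecom, Mllt3, Pdzk1ip1, Procr, Fgd5, Hoxb5, Ly6a, Slamf1 and Ctnnal1. It took 15 of 107 day 10 cells (14%, interval 8.06% to 22.1%) and 69 of 190 day 3 cells (36.3%, 29.5% to 43.6%). By plate the shares were 12.1%, 14% and 16.1% at day 10 and 37.2% and 35.4% at day 3, so the plates of the days did not overlap. The level of the shares rests on the number of genes asked for: with 1 gene fewer they were 40.2% at day 10 and 71.1% at day 3, and with 1 more 3.74% and 15.8%.

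The platelet gate took 14 of 107 day 10 cells (13.1%, 7.34% to 21%) and 4 of 190 day 3 cells (2.11%, 0.577% to 5.30%). The shares were 12.1%, 14% and 12.9% on the day 10 plates and 2.13% and 2.08% on the day 3 plates. With 1 gene fewer the shares were 19.6% at day 10 and 5.79% at day 3. These cells were deep, with a median of 688511 counts at day 10 and 371328 at day 3. The erythroid gate took 4 day 10 cells (3.74%), of which 3 were on plate 15, and 2 day 3 cells (1.05%). The myeloid gate took 5 day 10 cells (4.67%), of which 4 were on plate 14, and 1 day 3 cell (0.526%). One of the 4 was the shallowest kept barcode, with 20121 counts but 5611 detected genes, against 900 genes in the next shallowest, with 30581 counts. For both of these gates the intervals of the days overlapped. No lineage gate took 84 of the day 10 cells (78.5%, 69.5% to 85.9%) and 184 of the day 3 cells (96.8%, 93.3% to 98.8%). These ungated cells held 22953335 of the 40041487 day 10 counts and 25268359 of the 28934071 day 3 counts. Deep cells therefore weigh more in summed levels, which do not describe a typical cell. Only 1 cell of each day fell in both the stem cell and the platelet gate.

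**Figure D2:**
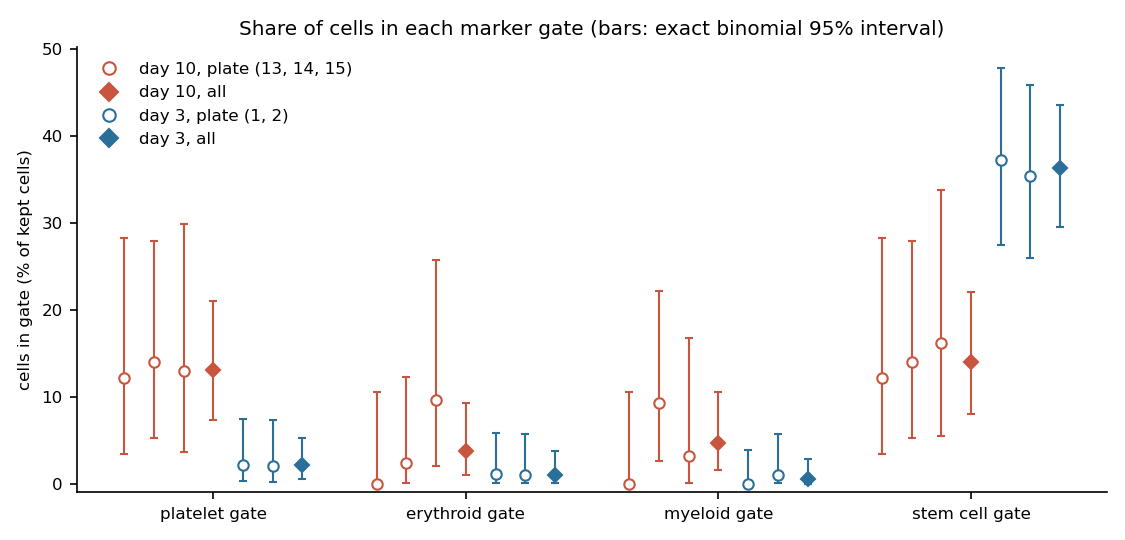
Share of kept cells (percent, vertical) in each marker gate, with open circles for plates, diamonds for all cells of a day and bars for exact binomial 95% intervals. The platelet gate took 13.1% of day 10 cells and 2.11% of day 3 cells, and the stem cell gate 14% and 36.3% in the same order.

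Among stem cell genes, Pdzk1ip1, Mllt3, Hoxb5, Fgd5 and Procr were lower at day 10 while Hlf and Meis1 were near equal. Of 18 genes on the HSC list, 17 were compared, 5 were called lower, where 7.04% of all genes were, and 0 higher. All 10 genes of the stem cell gate are on this list, and the 5 called lower are all gate genes. The gate share and these calls are therefore not separate observations. The median log2 ratio was -0.31, against 0.12 over all genes, but it was -0.04 outside the lineage gates, 0.04 in cells of 80000 to 250000 counts and, over the 7 list genes compared there, 0.62 in stem cell gate cells. Pdzk1ip1 encodes a small membrane protein whose gene marks stem cells. It had 352, 318 and 194 CPM on the day 10 plates and 772 and 996 CPM on the day 3 plates. Summed over cells this was 287 CPM at day 10 (interval 282 to 292) and 884 CPM at day 3 (873 to 895), a log2 ratio of -1.62, and all day 10 plates lay below both day 3 plates. At 100 CPM or more it was found in 59 of 107 day 10 cells (55.1%) and 150 of 190 day 3 cells (78.9%), with a median of 516 CPM in those cells at day 10 and 999.8 CPM at day 3. Both the share of cells and the level within them were therefore lower at day 10. In the published work the Cre that switched the reporter on was expressed from Pdzk1ip1, and the cells were sorted for the reporter. The level of Pdzk1ip1, also a gate gene, is thus not separate from the sort, and the part of the sort was not tested. Pdzk1ip1 was also lower in cells outside the lineage gates, at 388 CPM at day 10 and 961 CPM at day 3. Pdzk1ip1 is short, at 1129 nt, and the median log2 ratio of the 774 genes of 0.8 to 1.25 times that length was -0.01.

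Mllt3, which reads acylated histones and sustains the stem cell state, had 575, 536 and 327 CPM on the day 10 plates and 986 and 976 CPM on the day 3 plates (log2 ratio -1.03). It reached 100 CPM in 53 of 107 day 10 cells and 142 of 190 day 3 cells. Outside the lineage gates it had 775 CPM at day 10 and 1070.5 CPM at day 3, which was not called, and in cells of 80000 to 250000 counts 1141 CPM at day 10 and 1147 CPM at day 3. Hoxb5, a homeobox factor of long-term stem cells, had 15 CPM at day 10 and 48.8 CPM at day 3, and Fgd5, a guanine nucleotide exchange factor used to mark stem cells, 17 CPM and 50.1 CPM in the same order. Procr, a protein C receptor on stem cells, reached 100 CPM in 7 day 10 cells and 32 day 3 cells. None of Hoxb5, Fgd5 and Procr was called outside the lineage gates. Single cells held 33.2% of the day 10 counts of Hoxb5 and 47.3% of those of Fgd5.

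Other stem cell genes, picked after their values were seen, were not called with all cells. Hlf, a transcription factor of the stem cell state, had 367, 245 and 162 CPM on the day 10 plates and 324 and 226 CPM on the day 3 plates. The days overlapped, and Hlf reached 100 CPM in 41.1% of day 10 cells (31.7% to 51.0%) and 46.3% of day 3 cells (39.1% to 53.7%). Meis1, a homeobox partner of Hox proteins, had 542 CPM at day 10 and 588 CPM at day 3, and Mecom, a zinc finger regulator of stem cells, 163 CPM and 216 CPM in the same order. Tek, the angiopoietin receptor, was not called with all cells, where its plates overlapped, and was called higher in the stem cell gate and outside the lineage gates, in the last of these with 72.4 CPM at day 10 and 29.8 CPM at day 3.

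Megakaryocyte genes had the largest share of higher calls among the 29 lists. Of 20 listed genes, 17 were compared, 9 were called higher (against 4.62% of all genes compared) and 0 lower, and the median log2 ratio was 1.19. All genes of the platelet gate are on this list, so the gate share and these calls are not separate observations. In a mixture, more cells of a type and more RNA per cell cannot be told apart from a sum, so cell shares are given beside the levels. Plek, a signalling protein of platelets, had 548, 295 and 174 CPM on the day 10 plates and 66.1 and 52.3 CPM on the day 3 plates. All day 10 plates were above both day 3 plates, and the sum was 325 CPM at day 10 (320 to 331) and 59.2 CPM at day 3 (56.4 to 62.1), a log2 ratio of 2.44. It reached 100 CPM in 28 of 107 day 10 cells (26.2%, 18.1% to 35.6%) and 10 of 190 day 3 cells (5.26%, 2.55% to 9.47%). The median level in those cells was 543 CPM at day 10 and 563 CPM at day 3, so cells with Plek were more frequent at day 10, at a median level close to that at day 3.

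Plek in cells outside the lineage gates had 137 CPM at day 10 and 40.8 CPM at day 3, which was not called. In cells of 80000 to 250000 counts, it had 17.3 CPM at day 10 and 30.1 CPM at day 3. This range holds no day 10 cell of a lineage gate, the platelet gate among them. It does hold a plate 13 barcode of 87616 counts but 10994 detected genes, with 525 CPM of Plek and 639 CPM of Pf4. F2rl2, a thrombin receptor of mouse platelets, had 220, 62.1 and 123 CPM on the day 10 plates and 0.138 and 6.77 CPM on the day 3 plates (log2 ratio 4.83). It was above 10 counts in 8 day 10 cells and in 1 day 3 cell. Treml1, a receptor of platelet granules, had 124, 98.7 and 39.7 CPM on the day 10 plates and 9.90 and 5.45 CPM on the day 3 plates. Ppbp, a platelet chemokine, had 104 CPM at day 10, of which 68.1% came from 1 cell, and 6.67 CPM at day 3.

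Itga2b, the integrin chain CD41 of the fibrinogen receptor, was named after its values were seen. It had 59.5, 239 and 149 CPM on the day 10 plates and 39.9 and 54.7 CPM on the day 3 plates, and reached 100 CPM in 19.6% of day 10 cells and 4.74% of day 3 cells. Pf4, platelet factor 4, whose promoter is shown above, had 581, 795 and 297 CPM on the day 10 plates and 396 and 295 CPM on the day 3 plates, so its plates overlapped and it was not called. Its cells at 100 CPM or more held a median of 1343 CPM at day 10 and 282 CPM at day 3. The share of cells with more than 10 counts of Pf4 was 44.9% at day 10 and 11.1% at day 3, and 19.0% and 5.41% after thinning, with the low counts on plate 14 given above beside them. Pf4 is short, at 588 nt, and the median log2 ratio of the 146 genes of like length was -1.03. Vwf, the von Willebrand factor, had 90.4 CPM at day 10 and 45.9 CPM at day 3 (log2 ratio 0.96), just short of the 2-fold limit, with day 10 plates of 94.9, 87.1 and 90.6 CPM above day 3 plates of 42.1 and 49.7 CPM. Only 7 megakaryocyte genes were compared outside the lineage gates, with the gate genes left out, and 0 were called.

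**Figure D3:**
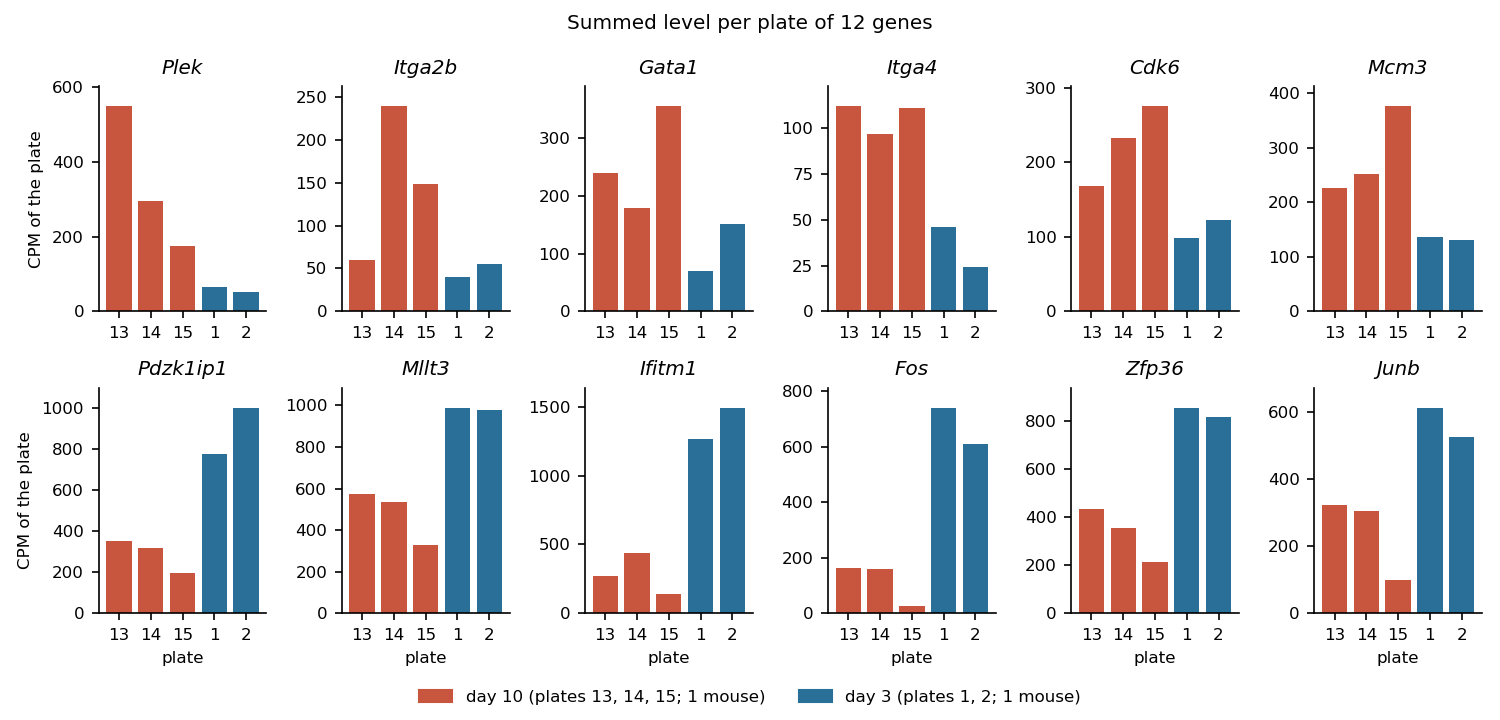
Level per plate (CPM of the summed counts, bars from 0) of 12 genes, with the 3 day 10 plates in red left of the 2 day 3 plates in blue. Plek, Itga2b, Gata1, Itga4, Cdk6 and Mcm3 were higher on every day 10 plate, and Pdzk1ip1, Mllt3, Ifitm1, Fos, Zfp36 and Junb were lower on every day 10 plate.

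Few regulators shared by megakaryocytes and red cells were called. Of 13 factors compared, 1 was called higher and 1 lower, where 4.62% and 7.04% of all genes were. Gata1, the master regulator of both lineages, had 240, 179 and 355 CPM on the day 10 plates and 69.6 and 151 CPM on the day 3 plates, with 253 CPM at day 10 and 110 CPM at day 3 in sum (log2 ratio 1.19). It reached 100 CPM in 20 of 107 day 10 cells and 11 of 190 day 3 cells. In cells of 80000 to 250000 counts, with no day 10 lineage gate cell among them, its level was 9.09 CPM at day 10 and 17.7 CPM at day 3. Ldb1, an adaptor of GATA complexes, was called lower, at 22.8 CPM at day 10 and 47.7 CPM at day 3. Lyl1, a helix-loop-helix factor picked after its values were seen, and Cbfa2t3, a corepressor, had log2 ratios of -0.78 and -0.80 and were not called.

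Red cell genes showed no common direction. Of 13 compared, 0 were called higher and 2 lower, where 4.62% and 7.04% of all genes were, with a median log2 ratio of 0.04. Klf1, an erythroid transcription factor, had 1.26, 42.7 and 403 CPM on the day 10 plates and 61.8 and 90.8 CPM on the day 3 plates, with 97.4% of its plate 15 counts in the 3 erythroid gate cells there. Hbb-bt, a beta globin chain, was called lower, at 18.6 CPM at day 10 and 64.7 CPM at day 3, but in stem cell gate cells its log2 ratio was 0.15. Hbb-bt has 703 nt and Mt2, the other gene of the red cell list called lower, 511 nt. The median log2 ratios of genes of like length were -0.80 and -1.07. Among 8 heme synthesis enzymes compared, all were above 0 and Urod, which makes coproporphyrinogen, was called higher, where 4.62% of all genes were. It was not called outside the lineage gates. Urod had 413, 428 and 616 CPM on the day 10 plates and 241 and 214 CPM on the day 3 plates, and 47.7% of day 10 cells against 32.1% of day 3 cells reached 100 CPM.

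With all cells, none of the 6 neutrophil, 12 monocyte or dendritic cell and 3 lymphoid genes compared was called in either direction. Over all genes 4.62% were called higher and 7.04% lower. Mpo, a granule enzyme of neutrophil precursors, had 7.5, 3.27 and 555 CPM on the day 10 plates and 6.16 and 84.8 CPM on the day 3 plates, and 74.0% of the day 10 counts came from 1 cell. It was also above 10 counts in 28 of 30 plate 15 cells outside the myeloid gate, against 1 of 33 on plate 13, and Ly6c2, a monocyte surface gene, was in 17 of 39 such cells on plate 14 and 0 of 30 on plate 15. The summed neutrophil list ran from 248 to 1785 CPM over the day 10 plates and from 557 to 770 CPM over the day 3 plates. No gene of the basophil, mast cell or eosinophil list passed the level filter, and 1 of the macrophage, stromal or endothelial list did. Cd48, a surface protein that stem cells lack and progenitors carry, was at 0, 196 and 61.6 CPM on the day 10 plates and at 0.277 and 8.01 CPM on the day 3 plates. Its plates overlapped, and it was above 10 counts in 5 day 10 cells and 1 day 3 cell.

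Few progenitor and cell cycle genes were called, and the summed levels of these lists overlapped between the days. The multipotent progenitor list summed to 915, 1609 and 1096 CPM on the day 10 plates and 949.6 and 876 CPM on the day 3 plates. Cdk6, a kinase that sets how readily stem cells enter the cycle, was the 1 of 11 multipotent progenitor genes called, where 4.62% of all genes were called higher. It had 168, 233 and 275 CPM on the day 10 plates and 97.7 and 123 CPM on the day 3 plates (log2 ratio 1.04), and 28 of 107 day 10 cells and 24 of 190 day 3 cells reached 100 CPM. It was not called outside the lineage gates, with 90.5 CPM at day 10 and 95.3 CPM at day 3. Rb1, the retinoblastoma protein that holds cells in G1, had 39.6 CPM at day 10 and 14.7 CPM at day 3 and was called higher. Cdk4, the partner kinase of D cyclins, was not called, with 639 CPM at day 10 and 389 CPM at day 3, and Ccnd2, a D cyclin, had 803 CPM at day 10 and 1233 CPM at day 3. Cdk4 and Ccnd2 were picked after their values were seen.

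Of 28 S phase genes compared, 26 had a log2 ratio above 0, the median was 0.77 and 2 were called higher, where 4.62% of all genes were. The list summed to 3471, 5238 and 8770 CPM on the day 10 plates and 3275 and 3875 CPM on the day 3 plates, so plate 13 lay between the day 3 plates. Mcm3, a subunit of the replicative helicase, had 227, 252 and 376 CPM on the day 10 plates and 136 and 131 CPM on the day 3 plates. It reached 100 CPM in 30.8% of day 10 cells (22.3% to 40.5%) and 19.5% of day 3 cells (14.1% to 25.8%). Cdt1, which loads that helicase, had 163 CPM at day 10 and 52.8 CPM at day 3. Other S phase genes varied with the plate. Rrm2, a subunit of ribonucleotide reductase, had 1.17, 191 and 468 CPM on the day 10 plates and 88.3 and 72.4 CPM on the day 3 plates, so the days overlapped and it was not called. Without plate 13, 12 S phase genes were called higher, without plate 2, 6, without plate 14, 3, and without plate 15 or plate 1, 1.

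The higher S phase levels were not seen in cells of a narrower range of depth, which holds no day 10 cell of a lineage gate. In cells of 80000 to 250000 counts, 38 at day 10 and 155 at day 3, the median log2 ratio over 25 S phase genes was -0.26, 1 gene was called higher and 10 lower, where 3.43% and 18.4% of all genes were, and Mcm3 had 30.9 CPM at day 10 and 108 CPM at day 3. Outside the lineage gates, with no limit on depth, the median over 27 S phase genes was 0.44 and 22 were above 0. There 2 were called higher and 1 lower, where 4.33% and 8.89% of all genes were. In stem cell gate cells the median was 0.45, with 17 of 26 genes above 0, 0 called higher and 3 lower. Within the depth range, depth and the absence of the lineage gate cells cannot be told apart. The part of depth in the S phase levels was not tested. Among 28 G2M genes in all cells, 0 were called higher and 1 lower, where 4.62% and 7.04% of all genes were, with a median log2 ratio of 0.20. Their sums were 2122, 4339 and 5285 CPM on the day 10 plates and 3357 and 3633 CPM on the day 3 plates, with plate 13 below both day 3 plates. Cenpf, a kinetochore protein, was the one called lower, at 45.1 CPM at day 10 and 116 CPM at day 3, and in cells of 80000 to 250000 counts its log2 ratio was 0.20. Of 27 G2M genes compared outside the lineage gates, 8 were called lower, where 8.89% of all genes were, and the median was -0.94. Mki67, the Ki-67 protein of dividing cells, was picked after its values were seen and shows this pattern. It had 130 CPM at day 10 and 76.9 CPM at day 3 in all cells, but 12.2 CPM at day 10 and 49.0 CPM at day 3 outside the lineage gates.

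Immediate early genes were lower at day 10 in a block. Of 19 listed genes in the table, 14 were compared, 9 were called lower (against 7.04% of all genes compared), 0 were higher and all 14 had a log2 ratio below 0, with a median of -1.04. Their summed level was 4046, 3857 and 2614 CPM on the day 10 plates and 7814 and 7676 CPM on the day 3 plates. Fos, a subunit of the AP-1 factor, had 162, 159 and 24.5 CPM on the day 10 plates and 738 and 611 CPM on the day 3 plates. In sum it had 116 CPM at day 10 (113 to 119) and 675 CPM at day 3 (665 to 684), a log2 ratio of -2.53, and the plates did not overlap.

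Fos was split between cells. At 100 CPM or more it was found in 14 of 107 day 10 cells (13.1%, 7.34% to 21%) and 87 of 190 day 3 cells (45.8%, 38.6% to 53.2%), while only 4 cells of each day lay between 50 and 200 CPM. Its median in the cells at 100 CPM or more was 707 CPM at day 10 and 1380 CPM at day 3. The share above 10 counts was 15% at day 10 and 45.8% at day 3, and 12.4% and 44.9% after thinning to equal depth. Zfp36, which binds and destabilises AU-rich mRNAs, had 432, 352 and 214 CPM on the day 10 plates and 852 and 816 CPM on the day 3 plates, and reached 100 CPM in 45.8% of day 10 cells and 70.5% of day 3 cells. Junb, another AP-1 subunit, had 323, 303 and 99.5 CPM on the day 10 plates and 610 and 525 CPM on the day 3 plates, with 39.3% of day 10 cells and 68.4% of day 3 cells at 100 CPM or more. Junb, Zfp36, Dusp1, Klf6, Jun and Ier2 were picked after their values were seen.

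Egr1, a zinc finger factor, had 422, 124 and 117 CPM on the day 10 plates and 569 and 579 CPM on the day 3 plates. Dusp1, a phosphatase of MAP kinases, had 620 CPM at day 10 and 1272 CPM at day 3, Klf6 215 CPM and 443 CPM, and Jun 345 CPM and 696 CPM, each in that order and each called lower. Fosb, an AP-1 subunit, was nearly confined to day 3: 6 counts lay in all day 10 cells and 1427 in day 3 cells, where 16 of 190 cells had more than 10. Ier2, an immediate early gene found in most cells, lay just outside the limits with 1152 CPM at day 10 and 2206 CPM at day 3.

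Fewer of these genes were called in narrower sets of cells, while Fos was lower in each. Outside the lineage gates 3 of 14 were called lower, where 8.89% of all genes were, with a median of -0.82, and Fos had 152 CPM at day 10 and 747 CPM at day 3. Within the stem cell gate 5 of 13 were called lower, where 22.3% of all genes were, and Fos had 140 CPM in the 15 day 10 cells and 787 CPM in the 69 day 3 cells. In cells of 80000 to 250000 counts 6 of 15 were called lower, where 18.4% of all genes were, and Fos had 57.2 CPM at day 10 and 835 CPM at day 3. Without plate 15, where Fos was lowest, 5 genes of the list were called lower in all cells.

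**Figure D4:**
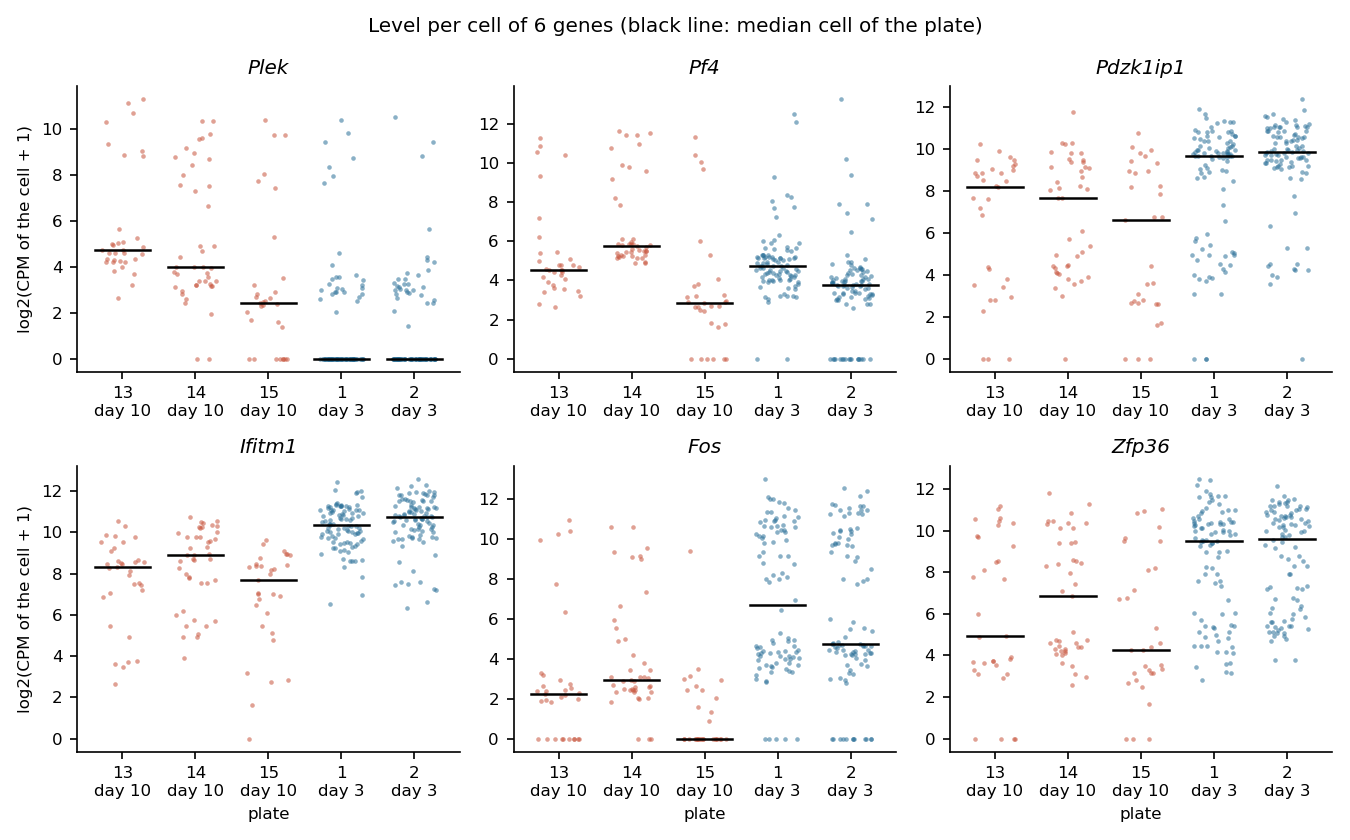
Level per cell (log2 of CPM + 1, vertical) of 6 genes by plate, with 1 point a cell, day 10 plates in red left of day 3 plates in blue, and black lines at the median cell. Fos split into a low band and a high band, and the high band held 14 of 107 day 10 cells and 87 of 190 day 3 cells. Zfp36 had more cells between low and high levels.

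Ifitm1 had the lowest log2 ratio of the interferon list. Of 22 interferon response genes compared, 0 were called higher and 5 lower, where 7.04% of all genes were. The median log2 ratio was -0.36, but it was above 0 in the other sets of cells, at 0.02 outside the lineage gates, 0.25 in cells of 80000 to 250000 counts and 0.60 in stem cell gate cells. Ifitm1, an interferon-induced membrane protein that stem cells also express without stimulus, had 270, 440 and 138 CPM on the day 10 plates and 1270 and 1492 CPM on the day 3 plates. The groups did not overlap, and the sum was 295 CPM at day 10 (289 to 300) and 1381 CPM at day 3 (1367 to 1395), a log2 ratio of -2.22. It reached 100 CPM in 80 of 107 day 10 cells (74.8%) and 187 of 190 day 3 cells (98.4%), with medians of 412 CPM at day 10 and 1572 CPM at day 3 in those cells. It was lower in every set of cells compared, with 525 CPM at day 10 and 1610 CPM at day 3 in stem cell gate cells.

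Ifitm3, its neighbour in the same gene cluster, had 373, 696 and 145 CPM on the day 10 plates and 1021 and 1106 CPM on the day 3 plates. Both are short: Ifitm1 has 882 nt and Ifitm3 678 nt, and the median log2 ratios of genes of 0.8 to 1.25 times these lengths were -0.47 (464 genes) and -0.87 (223 genes). The log2 ratio of Ifitm3 itself was -1.32, and the part of length in both results was not tested. Ifitm2, with 655 nt and a like-length median of -0.97, was not called, at 235 CPM at day 10 and 342 CPM at day 3. Xaf1, a partner of apoptosis inhibitors, Oasl2, an oligoadenylate synthetase relative, and Ifi203, a sensor of the p200 family, were called lower with all cells, but none of these was called outside the lineage gates. Oasl2 had a log2 ratio of 0.996 in stem cell gate cells. Irf1, a transcription factor of the interferon response, was not called with all cells and was called higher outside the lineage gates and in cells of 80000 to 250000 counts, with log2 ratios of 1.06 and 1.90. Ifi203, Irf1 and Ifitm2 were picked after their values were seen. After Ifitm1, the lowest log2 ratio of the list was that of Xaf1, at -1.61. Xaf1 has 2597 nt and a like-length median of 0.19. Beside genes of like length the 2 stood close, with 2.30% of such genes below Xaf1 and 1.94% below Ifitm1.

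Of 14 adhesion genes compared, 1 was called higher and 3 lower, where 4.62% and 7.04% of all genes were. Itga4, the alpha chain of the integrin VLA-4 that holds cells in the marrow, had 112, 97.1 and 111 CPM on the day 10 plates and 46.0 and 24.2 CPM on the day 3 plates. Named after its values were seen, it was called higher in all cells, outside the lineage gates, in the stem cell gate and in cells of 80000 to 250000 counts. It reached 100 CPM in 21 of 107 day 10 cells (19.6%, 12.6% to 28.4%) and 15 of 190 day 3 cells (7.89%, 4.49% to 12.7%). Jam3, a junctional adhesion molecule, had 0, 0.377 and 0 CPM on the day 10 plates and 52 and 49.3 CPM on the day 3 plates. At more than 10 counts it was found in 0 of 107 day 10 cells (upper bound 3.39%) and in 19 of 190 day 3 cells (10%, 6.13% to 15.2%). Itga6, an alpha integrin that binds laminin, had 21.8 CPM at day 10 and 67.9 CPM at day 3, and Alcam, an adhesion molecule, 5.99 CPM and 28.3 CPM in that order.

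Many ribosomal protein genes and some respiration genes were called lower at day 10, and both lists hold many short genes. Of 68 ribosomal protein genes compared, 34 were called lower, where 7.04% of all genes were, and 0 higher, with a median log2 ratio of -1.05. Their summed level was 21887, 31422 and 20081 CPM on the day 10 plates and 40936 and 45996 CPM on the day 3 plates. Rplp1, a protein of the ribosomal stalk, had 135, 342 and 123 CPM on the day 10 plates and 698 and 1183 CPM on the day 3 plates. Of 70 nuclear genes of mitochondrial respiration, 17 were called lower and 0 higher, with a median of -0.80, and 17 had a ratio above 0. Ndufa4, a subunit of the respiratory chain, had 148 CPM at day 10 and 501 CPM at day 3.

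Over all genes the log2 ratio differed by transcript length. Of the 8142 genes, 7908 (97.1%) have a length in GENCODE, and the median log2 ratio was -1.07 for genes of up to 600 nt, -0.97 for 601 to 800 nt, -0.47 for 801 to 1000 nt and 0.06 for 1001 to 1500 nt. Up to 600 nt, 42.7% of genes were called lower and 0 higher, 39.0% were lower from 601 to 800 nt and 17.4% from 801 to 1000 nt, while of genes of 2001 to 3000 nt 5.33% were called lower and 5.61% higher. The median length was 959 nt over ribosomal protein genes and 908 nt over respiration genes. For each gene the median log2 ratio of genes of like length was taken, and the medians of these over the 2 lists were -0.32 and -0.40. Only the gene itself was left out, so other genes of these lists are among those of like length. A lower share of short transcripts was there in every cell of plate 15. Of a cell's counts there, 0.977% to 2.30% lay in transcripts up to 800 nt, against 3.66% to 15.2% on plate 1. Cells of plate 13 ran from 1.37% to 5.91% and those of plate 14 from 2.99% to 10.6%, so both overlapped plate 1. The highest plate 13 cell was among 9 of 80000 to 250000 counts, whose median was 2.01%. The median cell had 1.91% on plate 13, 3.93% on plate 14 and 4.65% on plate 1. Without ribosomal protein genes, transcripts of this length still took 2.29% of counts at day 10 and 4.13% at day 3. In cells of 80000 to 250000 counts the shares were 2.57% at day 10 and 5.32% at day 3. Library and cells cannot be told apart here, because each plate is its own library. Immediate early, S phase and megakaryocyte genes had median lengths of 2425.5, 3050 and 2210 nt. For these lists the medians of the like-length medians lay between 0.11 and 0.21.

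**Figure D5:**
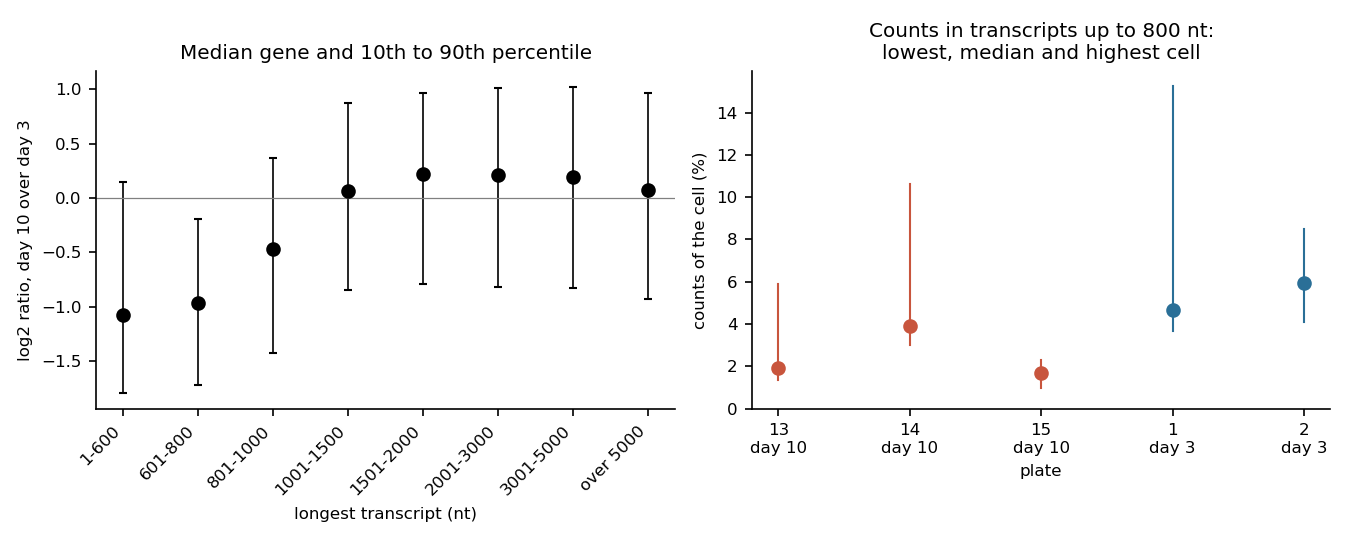
Left, log2 ratio of day 10 over day 3 by length of the longest transcript (nt), with points at the median gene and bars from the 10th to the 90th percentile. Right, percent of a cell's counts in transcripts up to 800 nt by plate, with points at the median cell and lines from the lowest to the highest cell, where the median cells of all 3 day 10 plates lie below those of both day 3 plates.

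Of 8 mitochondrial genome transcripts compared, 2 were called lower, where 7.04% of all genes were, and 7 had a log2 ratio below 0. Some were near 0, with 0.07 for mt-Nd4, -0.02 for mt-Nd1 and -0.12 for mt-Cytb. Outside the lineage gates 3 were above 0 and 5 below. The mt-Co1 transcript, an oxidase subunit and 1 of the 2 called lower, had 140, 244 and 325 CPM on the day 10 plates and 500.3 and 599.7 CPM on the day 3 plates. For the lists that follow, the shares over all genes were 4.62% called higher and 7.04% called lower. Proteasome genes stood near equal, with 0 of 23 called and a median log2 ratio of 0.20. Glycolysis genes had 0 of 10 called and a median of 0.03, chaperones 0 of 16 and 0.29, and cholesterol synthesis 1 of 12 lower and -0.32. MHC genes had 0 of 11 called and a median of -0.29, Gimap GTPases 0 of 4 and -0.55, and ribosome biogenesis factors 1 of 16 higher and 0.27. TGF-beta and Notch genes had 1 of 9 lower (Id2, a repressor of helix-loop-helix factors, with 16 CPM at day 10 and 37.9 CPM at day 3) and a median of -0.30. Of 7 tubulins, Tuba8 alone was called, higher at day 10, with 119, 300 and 234 CPM on the day 10 plates and 24.2 and 64.8 CPM on the day 3 plates.

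The genes with the largest ratios otherwise rested on few cells, also after predicted genes and genes with over 25% of the higher day's counts in 1 cell were left out. On the lower side, after Jam3 and Fosb, came Fbxo44, Eps8l1, Rbm11, Rras, Slc13a2, Acad12, Col4a1, Zfp37, Pi4k2a and BC002059. Each of these 10 had at most 34.6 CPM at day 3, was above 10 counts in 3.16% to 5.79% of day 3 cells and had at most 0.574 CPM at day 10. Slc13a2, a dicarboxylate transporter, had 0 counts at day 10, where 3 counts would be 0.0749 CPM, and 22.5 CPM at day 3. On the higher side this limit sets aside F2rl2 (log2 ratio 4.83), Ppbp (3.78), Treml1 (3.33) and others. Beside Plek, Serpine2 and Tuba8, the next were Gbx2, Dolk, Trmt11, Aspa, Ttll4, Ssx2ip, Bin1, Chfr and ADCK4. Trmt11, a subunit of a tRNA methyltransferase, had 150, 110 and 230 CPM on the day 10 plates and 24.3 and 27.0 CPM on the day 3 plates, and was above 10 counts in 20.6% of day 10 cells and 7.37% of day 3 cells. The plates did not overlap. The other 8 were above 10 counts in 5.61% to 13.1% of day 10 cells.

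Setting lineage cells aside kept most of the lower genes and fewer of the higher ones. In the 84 day 10 and 184 day 3 cells outside the lineage gates, 354 of 8176 genes were called higher (4.33%) and 727 lower (8.89%). Of the genes called higher with all cells, 341 could be compared there and 160 were called higher again, and of the lower ones 400 of 558. In the 15 day 10 and 69 day 3 cells of the stem cell gate, 3.23% of 8216 genes were called higher and 22.3% lower, and in cells of 80000 to 250000 counts 3.43% of 8279 were higher and 18.4% lower. Both sets were chosen after the data were seen, and the numbers of day 10 cells in them are small, at 15 and 38. The depth range holds no day 10 cell of a lineage gate, so it sets those cells aside too. Of the genes called lower with all cells, 316 of 515 were lower again in the stem cell gate, among them Fos, Ifitm1 and Jam3, and 43 of 305 of the higher ones were higher again, among them Plek, Itga2b and Itga4. These cells are a part of those already compared. Plek there rested on few day 10 cells: a single cell on plate 13 (1609 CPM), a single cell on plate 14 (483 CPM), and on plate 15 cells at 263 and 209 CPM. The last of these was also in the platelet gate.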

How the data were processed

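Single cells sorted as Lin- Tom+ into plates were measured with a 3′ end variant of Smart-seq2, per the labels' protocols. The authors deposited raw counts per gene and well barcode. The build GRCm38 is named in the submitters' processing notes. For the aligner, the counter and molecular identifiers, nothing is stated in the sources used here. Group, mouse and plate were read from the sample titles.

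Counts of barcodes with at least 500 genes and 10000 counts were summed by day and plate and scaled to CPM. Ratios are log2((CPM at day 10 + 1)/(CPM at day 3 + 1)) for genes with at least 20 CPM in one of the days, which understates the change of low genes. No test was made, as each day is 1 mouse. Summed counts per plate ran between 11070047 and 15928135. Intervals cover counting error only. Doublets were not called. The cells, lists and gates were chosen with earlier results of these data known. Named genes were the 12 called genes with the largest ratio in each direction (at most 25% of counts from 1 cell, predicted genes left out) and up to 4 members of each list with the largest absolute ratio, with others said to be picked later. Shares at 100 CPM, the grouping by transcript length (GENCODE M21), the stem cell gate set and the depth range were chosen after seeing the data. Python 3.11.15, numpy 2.4.6, scipy 1.17.1, pandas 2.3.3, matplotlib 3.10.9 and, for TMM factors only, edgeR 4.0.16 in R 4.3.3 were used. The counting steps were checked on simulated data.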

Additional observations from a re-analysis of the deposited data

How the results depend on the processing

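With each of the 5 plates left out in turn, the genes called higher numbered 634 to 728 and those called lower 773 to 1052, against 376 and 573 with all plates, with fewer plates that must not overlap. Outside the lineage gates these ranges were 610 to 828 higher and 966 to 1320 lower. With 2-fold alone 760 genes were higher. A filter of 5 CPM gave 1099 lower genes (1400 outside the gates), and no filter beyond 3 counts gave 1429 (1716). Stem cell gate cells gave 1830 lower genes and cells of 80000 to 250000 counts 1520. The cause was not tested.

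HSC genes called lower numbered 3 with the mean of CPM per cell, 2 outside the gates, 0 in the stem cell gate and 3 in the depth range. Megakaryocyte genes called higher numbered 0, 3 and 0 in these 3 sets of cells. S phase genes called higher numbered 5 with the mean per cell, 1 to 12 with plates left out, 0 in the stem cell gate and 1 in the depth range. Interferon genes called lower numbered 3 with a pseudocount of 10 CPM or the mean per cell, 3 to 8 with plates left out, and 2 outside the gates and in the depth range. Immediate early genes called lower numbered 5 to 10 with plates left out, 3 outside the gates and 5 in the stem cell gate.

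The log2 ratio changed sign outside the gates for Cdk6 (-0.073), Ppbp (-1.25) and Serpine2 (-0.26), and in the stem cell gate for Hbb-bt (0.15), Ldb1 (0.66), Oasl2 (0.996) and Serpine2 (-3.56). In the depth range it changed sign for Cdt1 (-2.30), Cenpf (0.20), Chfr (-1.04), Gata1 (-0.89), Gbx2 (-2.02), Mcm3 (-1.77), Plek (-0.76), Ppbp (-1.41), Treml1 (-0.61), Ttll4 (-0.92) and Tuba8 (-0.31). That range holds no day 10 cell of a lineage gate. The ratio moved by less than the spread between plates for 82 of 127 named genes in the depth range, 80 of 123 in the stem cell gate and 106 of 127 outside the gates, and for 110 to 127 of 127 in the other settings.

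With 1 gene fewer the platelet gate took 5.79% and the erythroid gate 4.21% of day 3 cells. With 1 thinned count the erythroid gate took 14% of day 10 and 6.32% of day 3 cells, and the myeloid gate 14% of day 10 cells. The myeloid share of day 3 cells was 0 to 1.04% with plates left out. The stem cell gate took 40.2% of day 10 and 71.1% of day 3 cells with 1 gene fewer, 3.74% and 15.8% with 1 more, and 30.8% and 61.6% with 1 thinned count. No paired analysis was possible because the days share no plate numbers and no test was made.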
